A study of Mus musculus with 12 samples.

Results

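Adam8, Adam9, Adam10, Adam12, Adam15, Adam17, Adam22, Adam23, Adam28 and Adam33 are relatives of Adam19, the gene removed in the mice studied here. These 10 genes were taken by name from a table of 55679 mouse genes. Their RNA levels were compared between lung and heart, and between Adam19 knockout (KO) and wild-type (WT) mice, to ask whether related membrane proteases change when Adam19 is lost. RNA came from whole lung and whole heart of 6 male 129S6/SvEvTac mice aged 9 to 13 weeks, 3 WT and 3 KO. The KO mice carried throughout the body, on both chromosomes, an allele in which Adam19 exons 6 and 7 are replaced by a tdTomato reporter construct, and the labels name no other allele and no treatment. Each mouse gave 1 lung and 1 heart library, 12 in all, so that a lung and a heart with the same genotype and replicate number come from 1 mouse. The mouse identifiers carry prefixes that WT and KO mice do not share, and a difference between those prefixes cannot be told apart from genotype.

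ADAM proteins are membrane-anchored and carry a metalloprotease domain and a disintegrin domain. A prodomain keeps the protease inactive until convertases such as furin remove it, and the active enzymes cut the outer parts of growth factors, cytokines, adhesion molecules and receptors from the cell surface, which is called shedding. In the proteases, zinc in the active site is held by histidines beside a catalytic glutamate, and some family members have lost these residues and act as adhesion or receptor proteins. ADAM19 is known for its part in heart development, and its human gene has been linked to lung function.

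The zinc-binding site divides the members into proteases and members without a catalytic centre. It is therefore shown first for the targeted gene and for all 10 members, as 33 bases of coding sequence, 5′ to 3′, from the reference mouse genome (GRCm39, the build of the deposited tables, with the GENCODE annotation). The reference is of another strain, C57BL/6J, and the mice's own sequence was not read. Capitals mark the codons of the 3 histidines and the 1 glutamate.
Adam19: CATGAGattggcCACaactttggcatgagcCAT
Adam8: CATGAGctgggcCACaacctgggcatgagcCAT
Adam9: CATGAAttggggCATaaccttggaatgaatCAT
Adam12: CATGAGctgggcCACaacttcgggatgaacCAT
Adam15: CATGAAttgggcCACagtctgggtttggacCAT
Adam33: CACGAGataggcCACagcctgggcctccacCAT
Adam28: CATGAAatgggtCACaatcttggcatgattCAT
Adam10: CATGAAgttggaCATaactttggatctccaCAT
Adam17: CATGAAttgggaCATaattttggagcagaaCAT
Adam22: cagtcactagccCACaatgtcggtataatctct
Adam23: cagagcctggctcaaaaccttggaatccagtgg
All 4 codons were present in Adam19 and in 8 of the 10 members. Adam22 and Adam23 are shown at the aligned columns, where Adam22 kept 1 of the 4 codons and Adam23 kept 0.

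Every site lay in coding exons. That of Adam19 was at chr11:46015877-46015909 on the plus strand, downstream of the replaced exons 6 and 7, in a gene that spans chr11:45946775-46038172. The sites of Adam8 (chr7:139567806-139567838), Adam9 (chr8:25480342-25480374), Adam12 (chr7:133562887-133562919), Adam15 (chr3:89252087-89252119), Adam33 (chr2:130897050-130897082), Adam28 (chr14:68870616-68870648), Adam17 (chr12:21386733-21386765) and Adam22 (chr5:8193064-8193096) were on the minus strand. That of Adam23 was on the plus strand at chr1:63586922-63586954. The site of Adam10 was cut by an intron, and its 2 pieces lay between chr9:70661578 and chr9:70668867 on the plus strand.

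The gene values are deposited log2 abundances on a scale shared between libraries. A step of 1 is a doubling. Total estimated counts were 17674788 to 35862932 per library. The tissues matched their labels, with lung epithelium markers summing to log2 18.86 to 19.16 in the lung and 12.54 to 13.23 in the heart, and heart muscle markers to 20.81 to 21.07 in the heart and 13.35 to 14.63 in the lung. Rn7s1, a small cytoplasmic RNA, took 2.1% to 34.0% of the estimated counts of the lung libraries and 2.7% to 11.8% of those of the heart libraries. Genes were tested with limma, with p adjusted over all genes tested (Benjamini-Hochberg). A gene was called changed where the adjusted p was under 0.05, the fold change was 1.5 or more and the mean of the higher group was 6 or more, the thresholds named in the study's methods.

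Adam19 itself was the check of the genotype. In the lung its log2 level was 9.14, 9.41 and 9.12 in WT and 4.44, 3.21 and 3.50 in KO mice. In the heart it was 9.17, 9.25 and 10.27 in WT and 6.67, 6.01 and 6.56 in KO mice. It was lower in every KO library, with a log2 difference of −5.51 (SE 0.33) in the lung and −3.14 (SE 0.31) in the heart, and was called in both (limma adjusted p = 0.00558 in the heart). The deposited gene value of Adam19 departed from its summed transcripts by −0.96 to 3.06 between libraries, and with summed transcripts the differences were −8.79 in the lung and −7.05 in the heart. The transcript ENSMUST00000011400, which carries the zinc site, had 657.3 to 1228.7 estimated counts in WT libraries and 0 in every KO library. Without limma's trend of variance with abundance, the adjusted p in the heart was 0.0601.

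None of the 10 related genes was called changed in the lung of KO mice. The count was 0 of 10, where 0.0665% of all 16551 genes tested were called, and limma-voom called 0 as well. An unadjusted p under 0.05 (limma) was found for 1 of the 10 and for 981 of all genes tested. The median log2 difference of the 10 genes was 0.128, against 0.0104 over all genes tested. With 3 against 3 mice, an exact permutation test of a single gene cannot give a p below 0.1. The plot of each library's levels shows both tissues.

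**Figure D1:**
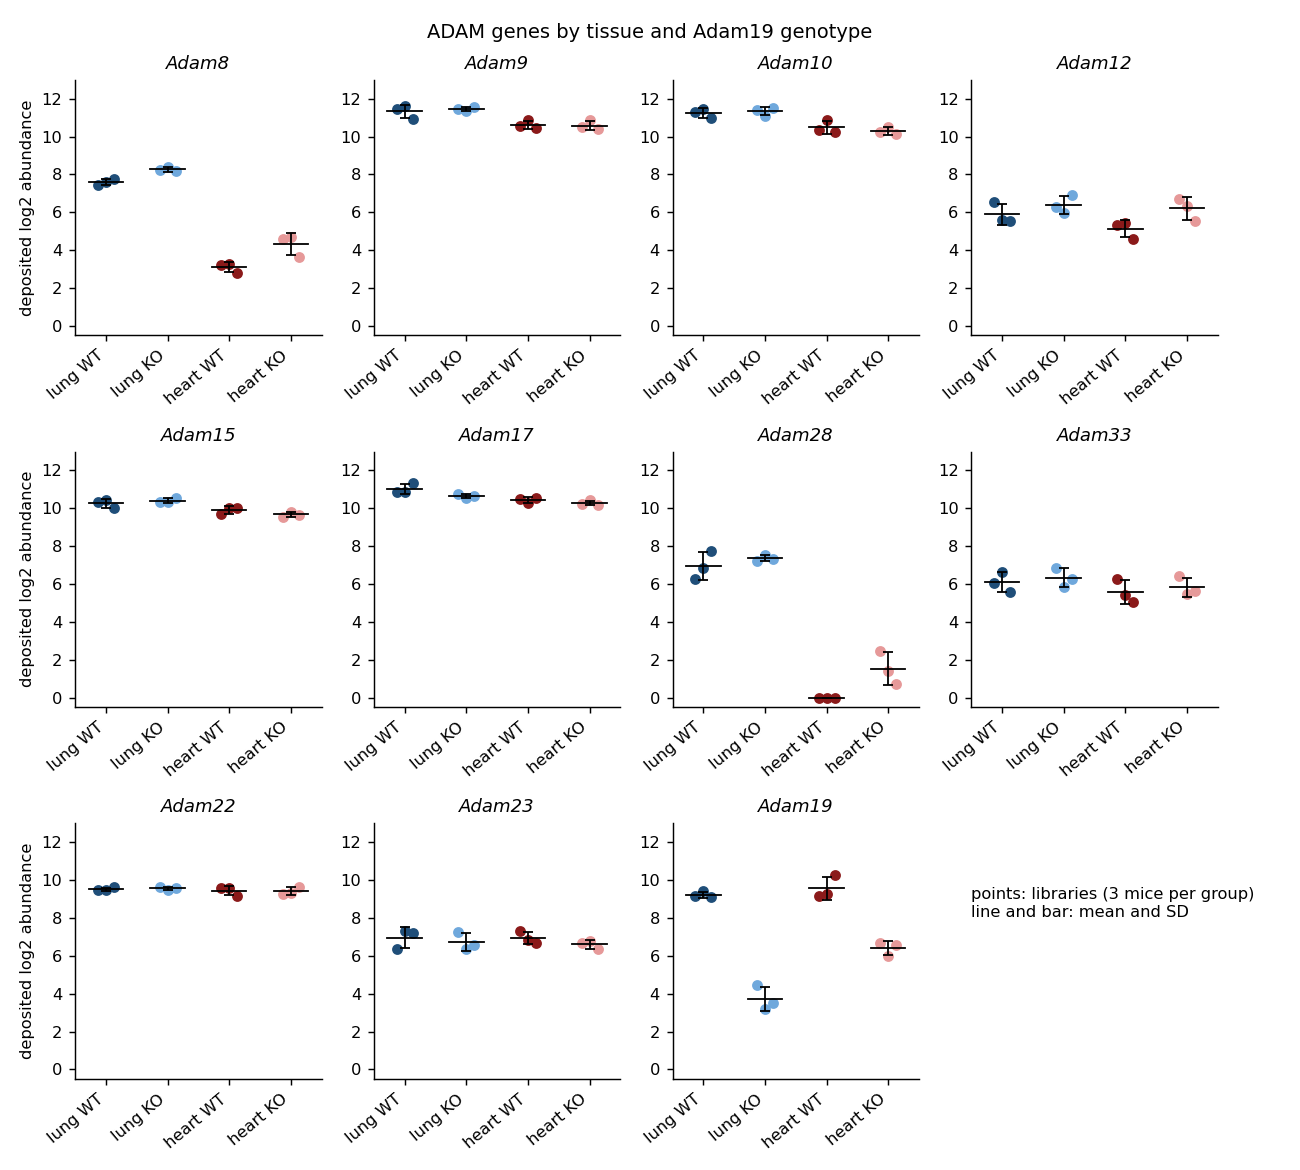
Log2 abundance of the 10 ADAM genes and of Adam19 in each of the 12 libraries, with 3 mice per group as points and the group mean and SD as a line and bar. Adam19 drops in KO mice of both tissues, Adam8 and Adam28 stand far higher in lung than in heart, and WT and KO points of Adam9, Adam10, Adam15 and Adam22 overlap.

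Among the general sheddases, Adam10, which cuts Notch receptors and cadherins, had lung levels of 11.30, 11.46 and 10.98 in WT and 11.38, 11.09 and 11.51 in KO mice. The groups overlapped, and the difference was 0.08 (SE 0.18, 95% interval −0.34 to 0.49, limma adjusted p = 0.946). Adam17, which releases TNF and ligands of the EGF receptor, was 10.86, 10.84 and 11.34 in WT and 10.77, 10.55 and 10.67 in KO mice. Every KO lung was below every WT lung, with a difference of −0.35 (SE 0.18, interval −0.75 to 0.05), but the difference was not called (limma adjusted p = 0.837). It was −0.183 without lung WT replicate 3, −0.0652 with limma-voom and −0.066 with scaling to the total, and stayed below 0 in all 15 alternatives. As background, 6.4% of all genes tested had every KO lung below every WT lung. WT replicate 3 was the highest lung.

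Adam9, Adam12, Adam15 and Adam33 are, like Adam19, proteases whose cytoplasmic tails carry proline-rich stretches that SH3-domain adaptors can bind. Adam9 in the lung was 11.46, 11.61 and 10.94 in WT and 11.46, 11.37 and 11.54 in KO mice, a difference of 0.12 (interval −0.31 to 0.56). Adam15, whose disintegrin domain binds integrins, was 10.31, 10.46 and 10.01 in WT and 10.32, 10.31 and 10.54 in KO mice, a difference of 0.13 (interval −0.25 to 0.52). The groups overlapped for both genes.

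Adam12 and Adam33 were low and spread widely. Adam12, known from muscle formation, was 6.54, 5.60 and 5.53 in WT and 6.26, 5.98 and 6.92 in KO lungs, a difference of 0.50 with an interval of −0.32 to 1.33. Adam33, whose human gene has been linked to asthma, was 6.04, 6.65 and 5.59 in WT and 6.84, 5.84 and 6.29 in KO lungs, a difference of 0.23 (interval −0.58 to 1.05). Both groups overlapped, and both intervals include rises of more than a doubling.

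Adam8 and Adam28 are proteases of blood-derived and epithelial cells, Adam8 mainly of neutrophils and other myeloid cells. Adam8 in the lung was 7.45, 7.58 and 7.77 in WT and 8.21, 8.40 and 8.17 in KO mice. Every KO lung was above every WT lung, by 0.66 (SE 0.18, interval 0.25 to 1.06). The unadjusted p was 0.005 and the limma adjusted p 0.806, so the difference was not called. As background, 6.41% of all genes tested had every KO lung above every WT lung.

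The Adam8 difference in the lung kept its direction in all 15 alternative settings, between 0.553 and 0.943, and the adjusted p stayed between 0.312 and 0.994. The upper values came with limma-voom (0.943) and with scaling to the total counts (0.939). These settings moved the median of all genes tested from 0.0104 to 0.296 and 0.293. RNA of a whole organ cannot tell more cells of a type from more RNA per cell. The 6 neutrophil markers summed to log2 10.51 to 10.73 in WT and 10.70 to 11.58 in KO lungs, with 0 of the 6 separating the genotypes. The median difference of the 5 that were tested was 0.356, against 0.0104 over all genes, from 0.02 for S100a8 to 0.88 for Retnlg (interval 0.08 to 1.67), and 0 were called. The 6 macrophage markers summed to 12.87 to 13 in WT and 12.85 to 12.98 in KO lungs, with a median difference of −0.0045. Marco was above in every KO lung (0.63) and Siglecf below (−0.62), and neither was called (limma adjusted p = 0.839 and 0.806). Of the 7 lung epithelium markers, Foxj1 was above in every KO lung (0.34) and Hopx (−0.63) and Sftpc (−0.67) below, and 0 were called, with summed levels of 18.86 to 19.16 in WT and 19.04 to 19.13 in KO lungs. The part of these cells in the Adam8 difference was not tested.

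Adam28 in the lung was 6.26, 6.85 and 7.76 in WT and 7.24, 7.54 and 7.34 in KO mice, a difference of 0.42 (interval −0.38 to 1.21) that ranged from 0.0706 to 0.818 on leaving out 1 library. The WT lungs spanned the KO lungs on both sides. The 6 B cell markers summed to 10.17 to 11.16 in WT and 10.77 to 11.17 in KO lungs.

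Adam22 and Adam23, the members without the zinc site, are receptors for secreted LGI proteins and are best known from synapses. Adam22 had the smallest SE of the 10 genes in the lung (0.14), with levels of 9.48, 9.48 and 9.62 in WT and 9.64, 9.49 and 9.59 in KO mice and a difference of 0.05 with an interval of −0.28 to 0.38. Adam23 was 6.34, 7.33 and 7.22 in WT and 7.28, 6.34 and 6.56 in KO lungs, a difference of −0.24 (interval −1.02 to 0.54). WT replicate 1 was the lowest WT lung and KO replicate 1 the highest KO lung, and the replicate numbers do not pair mice across genotypes.

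In the heart, 0 of the 9 related genes that could be tested were called changed, where 0.085% of all 15303 genes tested were called. Adam12 and Adam8 had an unadjusted p under 0.05 (limma), as did 1141 of all 15303 genes tested, and limma-voom called 0 members. Adam8 passed the filter on low values only through the KO hearts, where it was higher, so its p is not read as a result. The median log2 difference was −0.0353, against 0.0323 over all genes tested. Adam28 did not pass the filter on low values in the heart.

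Adam10 in the heart was 10.33, 10.85 and 10.26 in WT and 10.25, 10.51 and 10.11 in KO mice, a difference of −0.19 (interval −0.61 to 0.23). Adam17 was 10.48, 10.29 and 10.55 in WT and 10.23, 10.42 and 10.19 in KO hearts, a difference of −0.16 (interval −0.45 to 0.14). Both sheddases overlapped between genotypes. Adam9 was 10.56, 10.85 and 10.43 in WT and 10.49, 10.85 and 10.39 in KO hearts, a difference of −0.04 (interval −0.41 to 0.34). Adam15 was 9.68, 10 and 10.03 in WT and 9.53, 9.83 and 9.67 in KO hearts, a difference of −0.23 (interval −0.57 to 0.11). These values overlapped as well.

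Adam12 in the heart was 5.35, 5.42 and 4.60 in WT and 6.71, 6.34 and 5.55 in KO mice. Every KO heart was above every WT heart, by 1.08 (SE 0.37, interval 0.23 to 1.92, unadjusted p = 0.018), and the difference was not called (limma adjusted p = 0.609). Over 15 alternatives it lay between 0.806 and 1.40, with adjusted p from 0.495 to 0.994. The gene is low, and its deposited gene value differed from the log2 of its summed transcripts by −0.24 to 1.19 between libraries.

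Adam8 in the heart was 3.23, 3.27 and 2.79 in WT and 4.60, 4.70 and 3.65 in KO mice. Every KO heart was above every WT heart, with means 1.22 apart, and the difference was not called. The WT hearts all lay below the level of 3.46 that the filter asked for and the KO hearts above it, so the gene entered the test through the KO group alone, and these values are a description. As background, 7.82% of all genes tested in the heart had every KO library above every WT library and 5.23% had every KO library below. Of the 9 members tested, Adam12 and Adam8 alone were above and 0 were below.

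The markers of other cells moved unevenly in the heart. Of the 5 smooth muscle markers, 4 (Acta2, Cnn1, Myh11 and Tagln) had every KO heart above every WT heart and 0 were called, with Tagln differing by 1.38 (limma adjusted p = 0.194) and Myh11 by 0.81 (limma adjusted p = 0.315). Their summed level was 15.46 to 15.90 in WT and 15.84 to 16.02 in KO hearts. Col1a2, 1 of 5 fibroblast markers, Nppa, 1 of 7 heart muscle markers, and Cd3d, 1 of 5 T cell markers, were also higher in every KO heart than in every WT heart. The fibroblast markers summed to 14.45 to 14.78 in WT and 14.75 to 14.92 in KO hearts. The 6 neutrophil markers summed to 3.70 to 5.33 in WT hearts, where Mpo was at 0 in every library, and 5.09 to 5.88 in KO hearts. The part of these cells in the Adam8 and Adam12 differences was not tested.

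Adam22 in the heart was 9.60, 9.56 and 9.15 in WT and 9.25, 9.33 and 9.64 in KO mice, a difference of −0.03 (interval −0.42 to 0.36). Adam23 was 7.29, 6.81 and 6.69 in WT and 6.69, 6.78 and 6.34 in KO hearts, a difference of −0.32 (interval −0.86 to 0.21). Adam33 was 6.29, 5.42 and 5.06 in WT and 6.40, 5.46 and 5.61 in KO hearts, a difference of 0.23 (interval −0.65 to 1.11). The groups overlapped in all 3 genes. Adam28 was listed at 0 in all 3 WT hearts and at 2.48, 1.41 and 0.71 in the KO hearts, all below the filter. The KO values stand for 4.9, 1.8 and 0.8 summed estimated counts. Library totals were 33906290, 20381284 and 18392292 in the WT hearts and 31784742, 35862932 and 35529903 in the KO hearts.

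**Figure D2:**
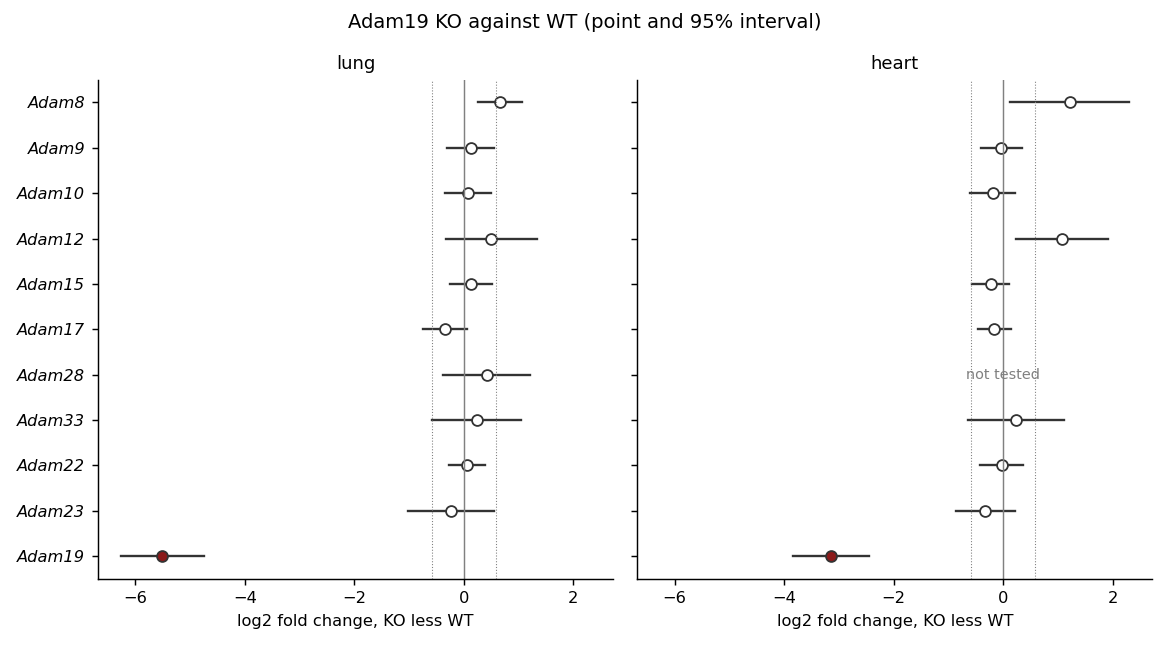
Difference in log2 abundance between KO and WT mice in lung and heart for the 10 ADAM genes and Adam19, as points with 95% intervals from limma (3 against 3 mice), filled where called, with dotted lines at a fold change of 1.5. Adam19 lies far to the left of 0, and the intervals that exclude 0 among the other genes are those of Adam8 in both tissues and of Adam12 in the heart, none with an adjusted p under 0.05 and Adam8 entering the heart test through the KO hearts alone.

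Whether the KO effect differed between tissues was tested over all 12 libraries. Of the members, 0 of 10 were called (limma), where 0.00566% of all 17666 genes were. An unadjusted p under 0.05 was found for 0 members and for 1392 of all genes. The KO effect on Adam8 in the lung less that in the heart was −0.56 with an interval of −1.48 to 0.36 (limma adjusted p = 0.755), and that on Adam12 was −0.57 with an interval of −1.80 to 0.65 (limma adjusted p = 0.803).

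More members were called between the tissues than between the genotypes. In WT mice 4 of the 10 genes, Adam8, Adam28, Adam9 and Adam10, were called higher in lung and 0 higher in heart, where 29.7% of all 16636 genes tested were called higher in lung and 20.5% higher in heart. In KO mice the same 4 genes and Adam15 were called, 5 of 10, and 0 higher in heart, where 30.9% and 22.3% of all genes tested were. The median log2 difference of the 10 genes was 0.651 in WT and 0.61 in KO mice, against 0.301 and 0.275 over all genes tested.

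Adam8 was higher in WT lung than in WT heart by 4.50 (SE 0.31, interval 3.79 to 5.21) and in KO mice by 3.94, the levels given above leaving a wide gap between the tissues. Adam28 was at 0 counts in every WT heart. Set against a floor of 3 counts per library, it was at least 30.7-fold higher in WT lung. In WT mice both genes passed the filter on low values through the lung alone, and so did Adam28 in KO mice, where its hearts lay at 0.71 to 2.48 and the filter asked for 3.46. Their place among the members called is therefore a description of that gap. Asking for a log2 value of 3.46 in every library removed both genes in WT mice and left 2 members called. In KO mice it removed Adam28 but not Adam8, which was still called (3.94), and left 4 members called.

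The rises of Adam9 and Adam10 were smaller and less firm. Adam9 was higher in WT lung by 0.72 (SE 0.21, limma adjusted p = 0.016) and in KO lung by 0.88. Adam10 was higher in WT lung by 0.77 (SE 0.21, limma adjusted p = 0.012) and in KO lung by 1.03. For both genes every lung of a genotype was above every heart of it. In WT mice the Adam9 call was lost on leaving out lung WT replicate 1 or 2 or heart WT replicate 1 or 3 (limma adjusted p 0.0569 to 0.0644), and the Adam10 call on leaving out lung WT replicate 2 or heart WT replicate 1 (limma adjusted p 0.0506 and 0.0521). Median-ratio scaling, which moved the median of all genes to 0.0735, also ended both WT calls, at 0.50 for Adam9 and 0.54 for Adam10. In KO mice both calls held in all 14 alternatives.

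Adam17 was higher in WT lung by 0.58 (limma adjusted p = 0.024) and in KO lung by 0.39 (limma adjusted p = 0.013), under the fold asked for. In WT mice it was called in 5 of 14 alternatives, without lung WT replicate 1 or 2 or heart WT replicate 3 (0.632 to 0.662), with limma-voom (1.0) and with scaling to the total (0.999). Adam15 differed by 0.36 in WT mice (limma adjusted p = 0.121), where limma-voom (0.785) and scaling to the total (0.778) called it. In KO mice it was called at 0.72, a call lost with median-ratio scaling or with summed transcripts. Adam12 differed by 0.76 in WT mice (limma adjusted p = 0.131) and 0.19 in KO mice, and Adam33 by 0.50 in both. Adam22 and Adam23 were nearly level between the tissues, at 0.09 (interval −0.32 to 0.50) and 0.04 (interval −0.74 to 0.81) in WT mice, and their sign turned with the scaling. Adam19 differed by −0.34 in WT mice.

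**Figure D3:**
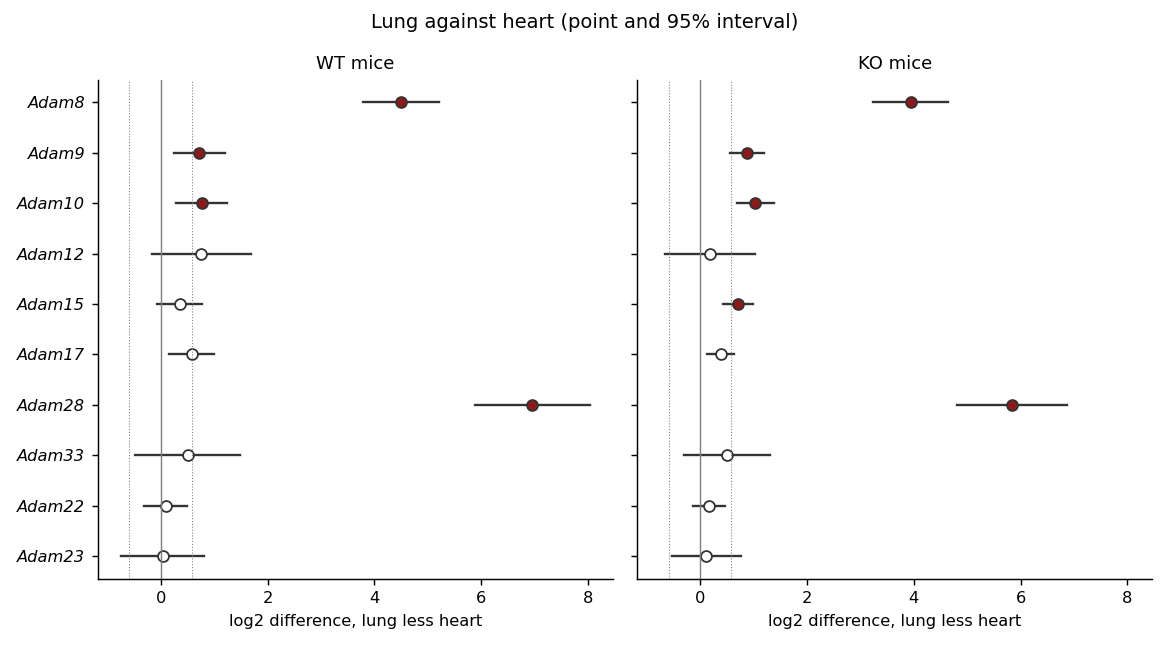
Difference in log2 abundance between lung and heart in WT and in KO mice, as points with 95% intervals from limma (3 lungs against 3 hearts of the same mice), filled where called, with dotted lines at a fold change of 1.5. Adam8 and Adam28 stand far to the right of 0 in both genotypes, Adam9, Adam10 and Adam17 lie a little above 0, and Adam22 and Adam23 lie near 0.

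Levels of different genes were compared per length, as estimated counts per kilobase of transcript on a per-million scale of library counts. In WT lung the order was Adam9 (26.1 ± 3.88, SD, n = 3), Adam10 (21.6 ± 2.12), Adam17 (19.6 ± 5.9) and Adam15 (18.8 ± 2.42), then Adam19 (7.55 ± 0.977). Neighbours among the first 4 overlapped, but Adam9 was above Adam15 in each of the 3 lungs and their ranges did not meet. Below Adam19 came Adam22 (3.79 ± 0.598), Adam8 (2.64 ± 0.649), Adam28 (2.13 ± 1.41), Adam33 (1.11 ± 0.348), Adam23 (1.06 ± 0.421) and Adam12 (0.361 ± 0.0929). Adam8 and Adam28, and Adam33 and Adam23, did not differ beyond their spread. With each length shortened by 200 nucleotides Adam15 (22.3) came above Adam17 (20.9), and with protein-coding transcripts alone it was at 15.8, Adam23 at 0.473 and Adam33 at 0.61.

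In WT heart the order was Adam9 (11.7 ± 0.954), Adam15 (11.6 ± 1.51), Adam17 (9.76 ± 1.41), Adam10 (9.46 ± 1.61) and Adam19 (7.44 ± 3.57). In heart WT replicate 3, Adam19 (11.6) was above Adam9 (10.8), Adam17 (10.8) and Adam10 (8.29) and below Adam15 (13.3). Adam22 followed at 2.63 ± 0.335, then Adam23 at 0.751 ± 0.189, Adam33 at 0.62 ± 0.283, Adam12 at 0.161 ± 0.0462 and Adam8 at 0.0723 ± 0.0167, with Adam28 at 0. With the shortened lengths Adam15 (12.8) came above Adam9 (12.4), and with protein-coding transcripts alone Adam23 was at 0.432 and Adam33 at 0.28. The plot of levels per length shows each library.

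**Figure D4:**
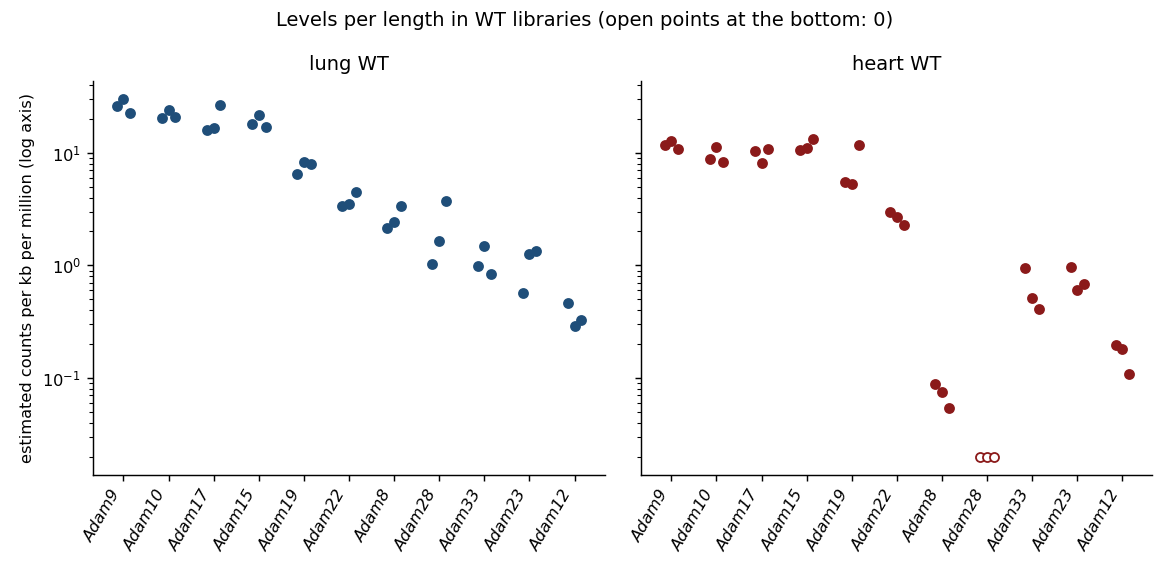
Estimated counts per kilobase of transcript on a per-million scale (log axis) of the 10 ADAM genes and Adam19 in the 3 WT lungs and 3 WT hearts, with open points at the bottom for values of 0. Adam9, Adam10, Adam15 and Adam17 lie above Adam19 in every lung, Adam19 in heart WT replicate 3 lies among them, and Adam8 and Adam28 are mid-range in lung and lowest in heart.

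Adam19 was thus 7.19% ± 0.351 of the summed per-length level of these 11 genes in WT lung and 13.5% ± 5.49 in WT heart. Under the other lengths the shares were 6.99% and 7.47% in lung and 13.7% and 13.2% in heart. On the deposited scaling between libraries, the 8 members with a zinc site summed to 85.8 ± 9.14 counts per kilobase in WT and 88.4 ± 5.37 in KO lungs, with ranges of 76.4 to 94.6 and 82.5 to 92.9. Adam19 went from 6.99 ± 0.841 to 0.125 ± 0.0659 on the same scale, with 3.5, 1.5 and 0.9 summed estimated counts in the KO lungs. In the heart the 8 members summed to 54.5 ± 3.87 in WT and 49.9 ± 6.0 in KO mice, and Adam19 went from 9.27 ± 4.18 to 0.806 ± 0.187. The Adam19 level left in KO hearts rests on 7.4 to 12.1 estimated counts of 1 transcript, ENSMUST00000137014, divided by its own length. The sums of WT and KO mice overlapped in both tissues. On the per-million scale of library counts the lung sums were 92.4 ± 7.07 in WT and 116 ± 3.04 in KO mice, a gap that was not there on the deposited scaling. Rn7s1 took 34.0%, 29.9% and 2.1% of counts in WT lungs and 10.5%, 3.2% and 20.3% in KO lungs, and its part in the gap was not tested.

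Isoforms were taken from the transcript table, scaled between libraries like the gene table. Between genotypes, 0 of 28 transcripts of the 10 genes were called in the lung, where 0.0841% of all transcripts tested were, and 0 of 21 in the heart, where 0.0626% were (limma). An unadjusted p under 0.05 was found for 1 of the 28 and 2 of the 21, against 2246 of 36845 and 1834 of 31931 over all transcripts. Between tissues of WT mice, 4 of 28 were called higher in lung, where 15.6% of all transcripts were, and 1 higher in heart, where 13.6% were. In KO mice 7 were higher in lung and 1 in heart, where 20.2% and 17% of all transcripts were. These counts are a description, since transcripts at or near 0 in 1 tissue passed the filter through the other. In WT mice 2 of the 5 were left when every library had to reach a scaled log2 value of 3.46.

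The isoform that was higher in heart in both genotypes was ENSMUST00000115386 of Adam22, although the Adam22 gene level was nearly the same in both tissues. It had 191, 194 and 75.1 estimated counts in WT hearts and 253, 347 and 331 in KO hearts. In the lung it had 0, 0 and 21.1 in WT and 21.8, 13.3 and 0 in KO mice, so no lung reached any heart. It passed the filter through the hearts, where it is high, so this gap is a description and its fitted difference and p are not given.

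This transcript has 31 exons and differs from ENSMUST00000050166, with 30 exons, by a coding exon of 87 bases, exon 29, in the part of the gene that encodes the cytoplasmic tail. The exon lies in the Adam22 gene (chr5:8122352-8418263, minus strand), and its length, a multiple of 3, keeps the reading frame. Another transcript, ENSMUST00000115388, has a coding exon of 111 bases that neither of them has, and lacks both the 87-base exon and an exon of 18 bases that they share. The sequences of both exons are shown, 5′ to 3′ on the minus strand of GRCm39, the shorter because it marks the isoform that was higher in heart, and the longer for comparison.
Adam22 exon of 87 bases, chr5:8137982-8138068: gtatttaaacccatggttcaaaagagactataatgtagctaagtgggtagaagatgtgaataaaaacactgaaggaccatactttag
Adam22 exon of 111 bases, chr5:8140142-8140252: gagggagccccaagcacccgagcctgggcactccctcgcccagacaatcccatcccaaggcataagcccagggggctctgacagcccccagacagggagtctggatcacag
The 87-base exon has a GC content of 34.5% and the 111-base exon of 65.8%.

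Transcripts with the 87-base exon made up 27.1%, 47.0% and 24.0% of the estimated counts of Adam22 transcripts that span it in WT hearts (32.7% ± 12.5, SD, n = 3) and 40.5%, 51.0% and 47.8% in KO hearts (46.4% ± 5.38). In the lung they made up 0%, 0% and 2.33% in WT and 2.33%, 1.11% and 0% in KO mice. The tissues were apart in every mouse, and the genotypes overlapped in each tissue. Transcripts with the 111-base exon made up 22.1% ± 13.7 in WT and 25.3% ± 5.98 in KO lungs, and 10.1% ± 11 in WT and 16.3% ± 5.74 in KO hearts, with a wide spread in every group.

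A test of usage, the difference of a transcript less that of the other transcripts of its gene, called 1 of 26 transcripts of the members in WT mice, where 11.9% of all transcripts were called. It was ENSMUST00000115386, lower in lung. Since it entered the test through the hearts alone, the call is a description too. With a scaled log2 value of at least 3.46 in every library 0 were called. The call was lost on leaving out lung WT replicate 1 or 2 or heart WT replicate 1 or 2, with limma diffSplice adjusted p of 0.0806 to 0.151. In KO mice, where 24.3% of all transcripts were called, 3 were called, this transcript lower in lung and ENSMUST00000050166 and ENSMUST00000115388 higher. Their differences are taken against the other transcripts of the gene, ENSMUST00000115386 among them, and so rest on the same lungs at or near 0.

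ENSMUST00000050166, without either exon, had 393, 456 and 811 estimated counts in WT and 628, 829 and 545 in KO lungs. In the heart it had 344, 177 and 194 in WT and 122, 125 and 235 in KO mice. After scaling it was lower in every KO heart than in every WT heart, with a difference of −1.15 (SE 0.28, interval −1.84 to −0.47), and was not called (limma adjusted p = 0.595). As background, 4.98% of all heart transcripts tested had every KO library below every WT library.

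**Figure D5:**
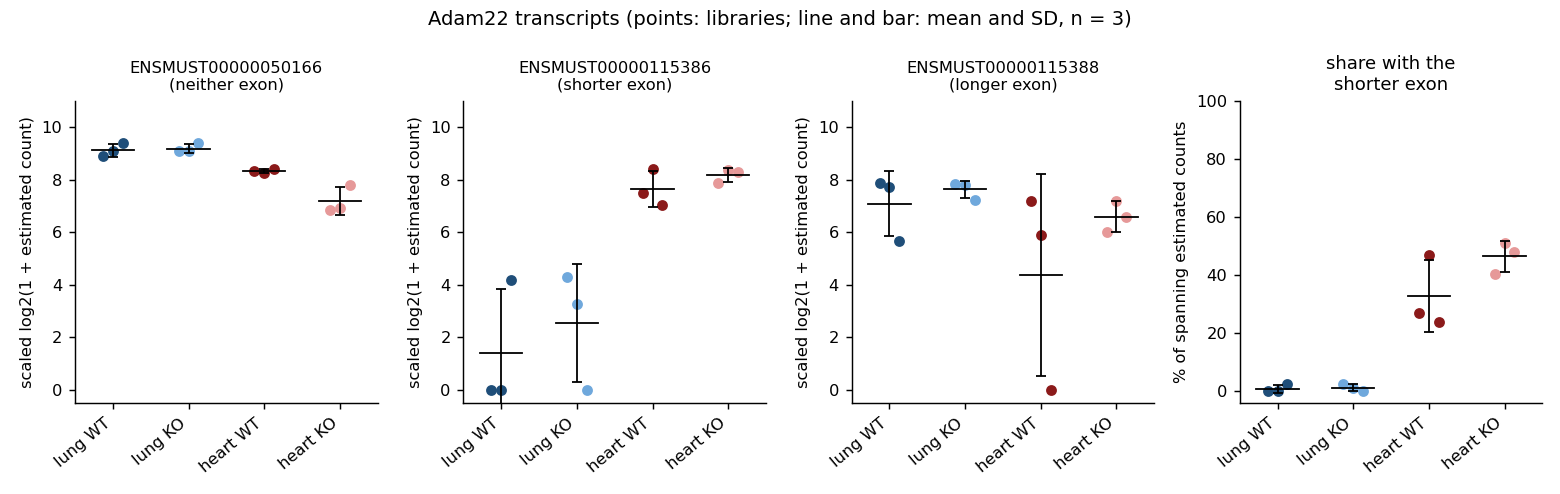
Scaled log2(1 + estimated count) of 3 Adam22 transcripts, without either exon, with the shorter exon of 87 bases and with the longer one of 111 bases, and the percent of estimated counts with the shorter exon, in each library (points), with the mean and SD of 3 mice. The transcript with the 87-base exon lies between 7.04 and 8.39 in every heart and at 4.3 or below in every lung.

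Of the 4 transcripts called higher in WT lung, some also passed with a scaled log2 value of at least 3.46 in every library. They were ENSMUST00000067880 of Adam10, higher by 0.76 (limma adjusted p = 0.0361), and ENSMUST00000050166 of Adam22, higher by 0.79 (limma adjusted p = 0.0173). Without a filter neither was called (limma adjusted p = 0.0635 and 0.0556). The Adam10 call was also lost on leaving out lung WT replicate 1 or 2 or heart WT replicate 1 or 3 (limma adjusted p 0.107 to 0.116), and the Adam22 call on leaving out lung WT replicate 2 or heart WT replicate 1 or 2 (limma adjusted p 0.0536 to 0.0613). The others passed the filter through the lung alone and are a description. ENSMUST00000026546 of Adam8 had 84.5, 91.8 and 221.1 estimated counts in WT lungs and 9.3, 4.7 and 0 in WT hearts, and ENSMUST00000224039 of Adam28 had 21.5, 70.0 and 193.3 in WT lungs and 0 in every WT heart. All 4 were called higher in lung in KO mice as well.

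Other genes of the pathway were taken from 8 lists with 83 genes. Between KO and WT mice, 0 of 63 tested in the lung and 0 of 58 in the heart were called (limma), where 0.0665% and 0.085% of all genes were. In each tissue 3 had an unadjusted p under 0.05, where 981 of all 16551 genes in the lung and 1141 of all 15303 in the heart did. In the lung these were Adamdec1, a secreted relative of the ADAM proteases, at 1.12, Lgi2 at 0.44 and Tspan14 at 0.40. In the heart they were Timp1 at 1.07, Lgi1 at −0.49 and Sh3pxd2a at −0.38. Between WT lung and heart, 36 of 63 were called higher in lung and 12 higher in heart, where 29.7% and 20.5% of all genes were. In KO mice 37 of 61 were higher in lung and 11 in heart, where 30.9% and 22.3% of all genes were. The counts of single lists that follow stand against the same shares for WT mice, and a gene near 0 in 1 tissue passed the filter through the other.

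Among the genes that carry ADAM17 through the cell, 2 of 3 were called higher in WT lung, Frmd8 by 1.72 and Rhbdf2, an inactive rhomboid, by 0.80. Of the tetraspanins that carry ADAM10, 4 of 5 tested were higher in lung, Tspan15 by 2.84, Tspan14 by 1.47, Tspan5 by 1.20 and Tspan17 by 0.98. The 4 prodomain convertases split, with Pcsk5 and Pcsk7 higher in lung by 2.08 and 0.74, and Pcsk6 and Furin higher in heart, at −1.88 and −1.08. Of the 5 metalloprotease inhibitors, Reck (2.21), Timp2 (1.14) and Timp3 (1.12) were higher in lung and Timp4 (−4.61) in heart.

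Of the 9 adaptors that bind ADAM tails, 4 were higher in lung and 3 in heart. Those with the largest differences were Pacsin3 (−3.76), the kinase Src (3.20), Sh3d19 (1.90) and Grb2 (−1.22). Of 25 substrates of ADAM10 and ADAM17, 18 were higher in lung and 3 in heart. The largest were Ager, the receptor for advanced glycation end products (10.27), the cadherin Cdh1 (9.67) and Epcam (9.23), all of epithelium, and Cdh2, the cadherin of heart muscle (−6.79). Of the 7 partners of ADAM22 and ADAM23, 3 were higher in lung and 2 in heart, with Lgi3 at 5.30 and Lgi2 at 2.39 against Lgi1 at −7.05 and Kcna1, a potassium channel, at −3.81. Of the 24 other ADAM genes, 7 passed the filter in at least 3 of the 12 libraries and 16 in none, and Adam11 was the 1 called, higher in WT heart (−3.60).

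The genes most like a member over the 12 libraries, by Pearson's correlation of log2 levels, were sought for the 4 members with the largest difference between lung and heart in WT mice. For Adam28 they were Cfap141 (r = 0.997), Cfap206 (0.997) and 4930562C15Rik (0.996), and 2208 of 17666 genes had an r over 0.95. For Adam8 they were Agbl2 (0.995), Ccdc162 (0.993) and Ccdc60 (0.993), with 1901 genes over 0.95. For Adam10 they included Gabpb2 (0.987) and Trim44 (0.985), with 111 genes. For Adam12 they were Gabarapl1 (0.866), Gm57355 (0.843) and Star (0.832), with 0 genes over 0.95. The points share 6 mice and fall into lungs and hearts, so these values describe the libraries and were not tested.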

How the data were processed

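The authors made strand-specific total RNA libraries and estimated transcript abundance with Salmon against a GENCODE annotation of mm39. The deposited gene table holds log2 abundances of 55679 genes and the deposited transcript table log2(1 + estimated count) of 147907 transcripts. Among single-transcript genes whose transcript reached 9, adding a constant per library to the transcript gave the gene value within 0.01 for 94.7% to 98.6% of them. The constants, −0.63 to 0.80, were used to scale transcripts. Where a gene has several transcripts, its value differed from their summed counts by a median of 0.049. The method behind the constants is not given in the sources used here.

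Values were tested as deposited with lmFit and eBayes with a variance trend (limma 3.58.1, R 4.3.3), since the tables hold log2 values and no raw counts. A feature entered a test where 3 or more libraries reached 3.46, which is 10 counts after scaling (2 or more where 1 library was left out). Because the constants differ, this level stood for different numbers of estimated counts in different libraries. The scripts were tested on simulated data. Lengths, exons and sequences came from GRCm39 with a later GENCODE release, which matched 99.5% of transcripts. For 2 Adam9 transcripts with no match, the length of the gene's most abundant matched transcript was used. Of the 7 Adam19 transcripts listed, 3 had no matched length either. The zinc sites were aligned with mafft 7.526. No member was near-identical to another gene (blastn 2.17.0, 95% over at least 500 bases), and genes on the same strand overlap Adam22, Adam12, Adam8 and Adam19.

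The members, lists and tests were chosen with earlier results of these data known. All 10 members and Adam19 were named. From each list the called genes were named, or the 4 with the largest difference where more were called. In addition, the 3 genes most correlated with each of 4 members were named, except 1 that is not reported here. Genes of the lists with an unadjusted p under 0.05 between genotypes were named after their values were seen. The pairing of lung and heart comes from the mice. The correlation of their deviations was −0.024 to 0.136 in WT and −0.068 to 0.02 in KO mice. The alternatives were leaving out each library, other filters, no variance trend, limma-voom, summed transcripts, other scalings, a fit of 12 libraries, the mouse as a block and other lengths.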

Additional observations from a re-analysis of the deposited data

How the results depend on the processing

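No member changed its call between genotypes in either tissue under the alternatives in which it was tested. In the heart Adam8 was tested in 12 alternatives, and Adam28 did not pass the main filter. No call was made in the test of the difference between tissues. Directions near 0 did turn, and the cause was not tested. For KO against WT lung, leaving out 1 library gave −0.076 to 0.257 for Adam9, −0.0567 to 0.196 for Adam10, −0.0296 to 0.51 for Adam33, 0.00882 to 0.236 for Adam15, 0.237 to 0.828 for Adam12, 0.0706 to 0.818 for Adam28 and −0.55 to −0.043 for Adam23. Adam23 was 0.0406 with limma-voom and 0.0439 with scaling to the total. For the heart, leaving out 1 library gave −0.169 to 0.0824 for Adam9, −0.173 to 0.0538 for Adam22 and −0.0527 to 0.582 for Adam33. Adam22 was 0.00388 with scaling to the total, and 0.0577 when Rn7s1 was left out of that total (an alternative chosen after seeing the data), where Adam9 was 0.0504.

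The members called between WT lung and heart, 4 in all, were 2 to 4 on leaving out 1 library (2 without heart WT replicate 1). They were 2 with a log2 value of at least 3.46 in every library, 2 with median-ratio scaling, and 6 with limma-voom or scaling to the total. With median-ratio scaling Adam22 was −0.133 and Adam23 −0.181, and leaving out 1 library gave −0.0542 to 0.172 and −0.146 to 0.348. In KO mice 5 members were called, 10 with limma-voom and 9 with scaling to the total. The count was 4 with a log2 value of at least 3.46 in every library, with summed transcripts or with median-ratio scaling. Limma-voom and scaling to the total moved the median of all genes from 0.275 to 0.961 and 0.965. Median-ratio scaling gave −0.013 for Adam22 and −0.0553 for Adam23, and leaving out 1 library −0.137 to 0.445 for Adam12 and −0.153 to 0.318 for Adam23.

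The transcripts called between WT lung and heart, 5 in all, were 3 to 5 on leaving out 1 library, 2 with the stricter filter, 3 with no filter and 8 in KO mice. The 1 usage call was 0 to 3 on leaving out 1 library, 0 with the stricter filter, which removed the Adam22 transcript listed at 0 in lungs, 2 with no filter and 3 in KO mice. The fits in KO mice were chosen after seeing the data. With the mouse as a block (replicate block), 4 members in WT and 5 in KO mice, 5 transcripts and 1 usage were called, and no call changed. Of the values per length, 46 moved with another length or scaling and 110 did not. In WT mice those were Adam15 in lung with both other lengths, Adam23 and Adam33 in both tissues with protein-coding transcripts alone, the order of the first 4 genes in both tissues with the shortened lengths, and 6 heart levels with the deposited scaling (an alternative chosen after seeing the data), which left the order as it was. The Adam19 shares in WT mice did not move. Low counts limit Adam8 and Adam28 in the heart and Adam12 throughout.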
